A study of Mus musculus with 2 samples.

Results

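The transcripts described here are those of 56 mouse DNA repair genes, taken by name from textbook repair pathways. No value entered the rule, but earlier results of these data were known when the list was made. They were compared between the dormant DMC-derived melanoma line B16F1-GFP-D and its maternal line B16F1-GFP-M, where DMC stands for disseminated melanoma cell. All 56 genes had a probe among the 27790 genes or transcripts on the arrays. They were sorted into 7 groups: 15 genes of homologous recombination, 7 of the Fanconi anaemia pathway, 4 of mismatch repair, 13 of base excision and single-strand break repair, 10 of nucleotide excision repair, 4 of non-homologous end joining, and 3 damage-response kinases and direct reversal genes.

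Both lines derive from B16F1, a melanoma line of the C57BL/6 mouse, and carry a GFP expression vector with a Geneticin resistance marker. They were cultured untreated in DMEM with serum. B16F1-GFP-D goes back to a lone colony of GFP+ cells, sorted from the pooled organs of control and immunised mice that had stayed tumour-free after injection of B16F1-GFP cells, so it represents 1 clone that then grew in culture, and the contribution of the donor mice to it is not known. RNA of both lines was hybridised together on 2 Agilent arrays. B16F1-GFP-D was labelled with Cy3 and B16F1-GFP-M with Cy5 on array 1, and the dyes were exchanged on array 2. The labels name no separate cultures, so each line has 1 replicate, no test was made, and the standard deviation (SD) between the arrays covers measurement and dye error only.

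Each repair pathway handles its own kind of lesion. Homologous recombination copies a broken stretch from the sister chromatid and works mainly in S and G2 phase, when that sister exists, whereas non-homologous end joining seals broken ends directly at any stage. The Fanconi anaemia pathway removes crosslinks between the strands that block replication forks, and mismatch repair corrects copying errors behind the fork. Base excision repair replaces damaged bases one at a time, starting with a glycosylase that cuts the base from the sugar. Nucleotide excision repair cuts out a short stretch around bulky damage such as the pyrimidine dimers that ultraviolet light makes in skin cells, melanocytes among them.

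All values are log2 ratios with B16F1-GFP-D in the numerator and B16F1-GFP-M in the denominator, from the brightest probe of a gene, after background correction and loess normalisation, and levels are normalised log2 intensities of the same probe. A level can be compared between lines but not between genes, since each probe binds with its own strength. A gene was counted as detected when both arrays flagged its probe as well above background for 1 line or for both. It was called when its ratio was at least 2-fold, a log2 ratio of 1, in the same direction on each array. Of the 56 genes, 54 were detected, and *Palb2*, the bridge between BRCA1 and BRCA2, and *Mgmt*, which removes alkyl groups from guanine, were not. In 52 of the 54 the probe passed that flag in each line on each array. The exceptions were *Bard1*, which passed in B16F1-GFP-M on 1 array only, and *Ercc6*, which passed in B16F1-GFP-D on 1 array only.

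The melanoma identity of both lines was visible on the arrays. All 9 melanocyte markers were detected, with a median log2 intensity of 14.56, and none was called. Of the 9, 3 were higher on both arrays, 4 were lower on both and 2 changed sign, with a median log2 ratio of 0.06. The shares of all detected genes were 41.0% higher and 42.8% lower on both. *Mitf*, the melanocyte master regulator, was lower in B16F1-GFP-D (-0.95 and -0.89), and *Dct*, a pigment enzyme, had -1.10 and -0.47. *Gpr143* (0.18 and 0.55), *Pmel* (0.03 and 0.56) and *Mlana* (0.04 and 0.25) were higher. The markers of other cell types were detected in 3 of 8 cases for fibroblasts, in 2 of 7 for leukocytes, in 0 of 5 for endothelial and in 0 of 6 for epithelial cells. The fibroblast marker *Pdgfrb* was higher by over 1.5-fold on each array (0.98 and 0.69). Of the 3 detected fibroblast markers, 2 were higher on both arrays and 1, *Col1a2*, was lower on both (mean -0.33). The markers given with values were singled out after their values were seen, and their part in the repair gene values was not tested. The defining *Ptprc*, *Pecam1* and *Epcam* were not detected. Over the 12540 detected genes the ratios of the arrays correlated with a Pearson r of 0.927, and the pooled SD between arrays was 0.15 on the log2 scale. Over the 54 detected repair genes these values were 0.969 and 0.12.

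There were 9 called members, all higher in B16F1-GFP-D: *Ung*, *Exo1*, *Fanci*, *Fanca*, *Rad51ap1*, *Brip1*, *Parp1*, *Blm* and *Msh6*. This is 16.7% of the 54 detected members, against 3.09% of all detected genes called higher. None was called lower, against 1.94% of all detected genes. With a threshold of 1.5-fold on each array, 15 members were higher and 2 were lower, while the shares of all detected genes were 8.77% and 7.02%. Regardless of size, 37 of the 54 were higher on both arrays, 11 were lower on both and 6 changed sign between the arrays, where the shares of all detected genes were 41.0% higher on both and 42.8% lower on both. The median member had a log2 ratio of 0.30 and the median of all detected genes was -0.01. The count of 9 depended on the normalisation within arrays: with each array centred on its median in place of loess, *Ung* alone passed on both arrays, although the mean ratios of the 9 then lay between 1.17 and 2.43. Of all detected genes, 0.510% were called in either direction with that centring.

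Calls by pathway rest on few genes each, beside 3.09% of all detected genes called higher and 1.94% called lower. The recombination, Fanconi and mismatch groups together held 7 calls among 25 detected genes, 23 of which were higher on both arrays, with a median log2 ratio of 0.66. The 4 other groups held 2 calls among 29 detected genes, with 14 genes higher on both arrays, 10 lower on both and a median of 0.10. This pooling was chosen with earlier results of these data known. Recombination (2 of 14 called, 14.3%) and base excision (2 of 13, 15.4%) had like shares but fell on opposite sides of it. The dye-exchanged pairs of values are shown in the plot of all detected members by pathway.

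**Figure D1:**
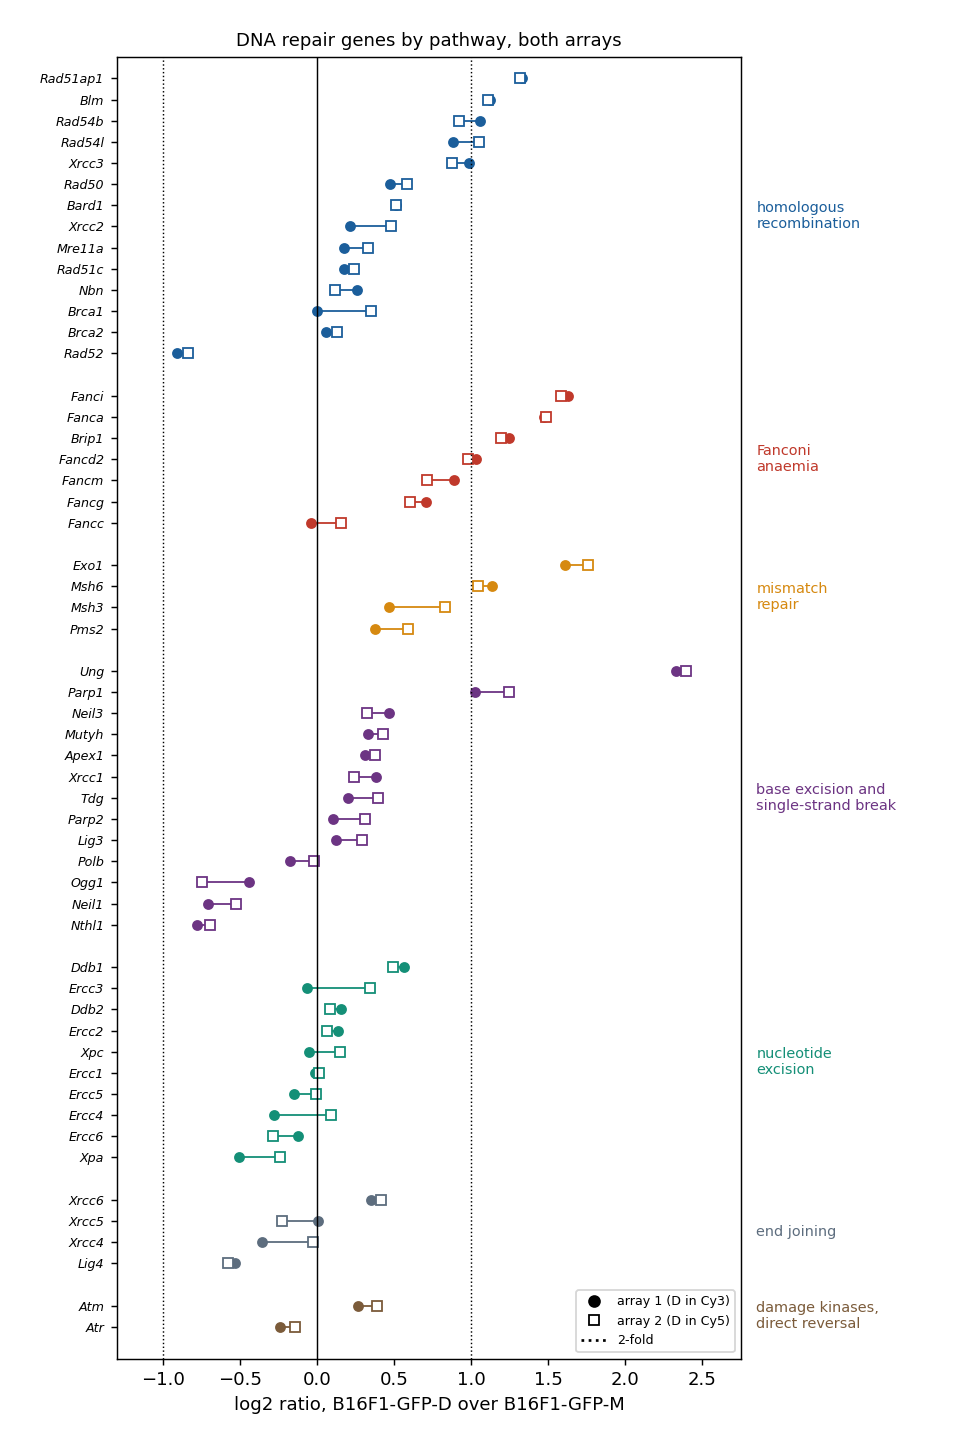
Log2 ratio (D over M) for the 54 detected repair genes, grouped by pathway. Each row is a gene, filled circles are array 1, open squares are array 2, and the dotted lines mark 2-fold. All 9 genes past 2-fold on both arrays lie on the right, and nucleotide excision and end joining genes lie around 0.

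The levels behind these ratios were as follows. *Ung*, the glycosylase that removes uracil from DNA, had a log2 intensity of 9.51 and 9.96 in B16F1-GFP-D on arrays 1 and 2, and of 7.18 and 7.57 in B16F1-GFP-M. Its log2 ratios were 2.33 and 2.39 (mean 2.36, SD 0.04, n = 2 arrays), which is 5.13-fold and the 10th largest increase of the 12540 detected genes. The size depended on the processing, with a mean of 2.89 at an offset of 0 and of 3.06 in the scanner software's ratios. On each array the B16F1-GFP-D level was above the B16F1-GFP-M level, but the 2 arrays read 1 replicate of each line.

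The mismatch repair genes were all higher on both arrays, with 2 calls among 4 and a median of 0.87. *Exo1* encodes the exonuclease that strips the strand carrying the error, and also trims broken ends for recombination. Its level was 11.01 and 11.15 in B16F1-GFP-D against 9.41 and 9.39 in B16F1-GFP-M, with ratios of 1.61 and 1.76 (mean 1.68, SD 0.11, 3.21-fold). *Msh6*, whose product recognises single mispaired bases, was at 11.79 and 11.46 against 10.66 and 10.42 (ratios 1.13 and 1.05, mean 1.09, SD 0.06). *Msh6* was thus just inside the threshold. *Msh3*, whose product recognises longer loops, had ratios of 0.47 and 0.83 (mean 0.65, SD 0.26). Its dimmer detected probes gave smaller means, 0.21 and 0.15. *Msh6* exceeded *Msh3* by 0.66 on array 1 and 0.22 on array 2, a difference that varied between the arrays by about its own mean of 0.44. *Pms2*, the nuclease subunit that nicks the faulty strand, was lowest of the group at 0.38 and 0.59. *Exo1* exceeded it by 1.23 and 1.17.

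The Fanconi group had the highest median, 1.00, with 3 calls among 7 genes and 6 genes past 1.5-fold. FANCI and FANCD2 form the clamp that locks onto a crosslink once ubiquitin is attached. *Fanci* was at 10.64 and 10.65 in B16F1-GFP-D and at 9.01 and 9.06 in B16F1-GFP-M (ratios 1.63 and 1.58, mean 1.61, SD 0.03, 3.04-fold). *Fancd2* had ratios of 1.03 and 0.98, so its mean of 1.00 lay on the threshold and array 2 kept it just outside. Within the pair, *Fanci* was ahead by 0.60 on array 1 and 0.61 on array 2.

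The other genes of this group are parts of the machinery that loads the clamp, and a helicase that acts after it. *Fanca*, a scaffold of the core complex that attaches the ubiquitin, was at 11.60 and 11.69 against 10.13 and 10.20 (ratios 1.47 and 1.48, mean 1.48, SD 0.01). *Brip1*, the helicase that binds BRCA1, was at 9.52 and 9.53 against 8.28 and 8.34 (ratios 1.24 and 1.19, mean 1.22, SD 0.03). *Fancm*, the translocase that brings the core complex to DNA, had ratios of 0.89 and 0.71, and *Fancg*, another core subunit, 0.71 and 0.60. The core subunit *Fancc* was the exception in this group, with -0.04 and 0.16, so the members of the core complex ranged from no consistent difference to 2.79-fold.

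**Figure D2:**
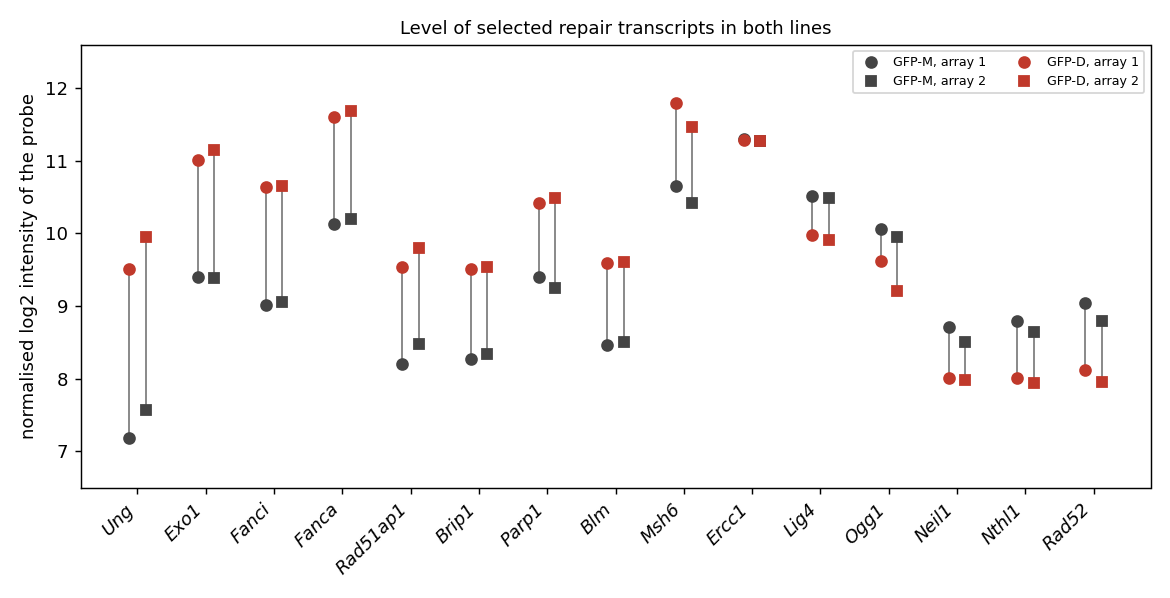
Normalised log2 intensity of the probes of 15 repair genes in B16F1-GFP-M (grey) and B16F1-GFP-D (red), with circles for array 1, squares for array 2 and a line joining both lines on each array. For the 9 called genes on the left both arrays place B16F1-GFP-D higher, *Ercc1* in the middle is level, and for the 5 genes on the right both arrays place it lower. Heights are not comparable between genes.

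Homologous recombination was higher in most of its genes, by unequal amounts. Of 14 detected genes, 13 were higher on both arrays, but only *Rad51ap1* and *Blm* were called, and the median was 0.43. *Rad51ap1* encodes a protein that stimulates strand pairing. Its level was 9.54 and 9.80 against 8.21 and 8.49 (ratios 1.33 and 1.32, mean 1.32, SD 0.01). *Blm*, the helicase that dissolves crossed-over intermediates, was at 9.59 and 9.61 against 8.47 and 8.50 (ratios 1.12 and 1.11, mean 1.11, SD 0.01). *Rad54b*, *Rad54l* and *Xrcc3* lay just below 2-fold on at least 1 array. *Rad54b* had ratios of 1.05 and 0.92, and *Rad54l* had 0.88 and 1.05. Both encode motor proteins that help strand invasion of the intact duplex, and their difference changed sign between the arrays, -0.17 and 0.13 for *Rad54l* over *Rad54b*. *Xrcc3* had 0.98 and 0.88. All of *Rad54b*, *Rad54l* and *Xrcc3* were past 2-fold on both arrays with an offset of 0 (means 1.23, 1.54 and 1.21) and in the scanner software's ratios (means 1.31, 1.87 and 1.32).

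The best-known recombination genes differed little. *Brca1* was among the brighter members, at 11.33 and 11.69 in B16F1-GFP-D against 11.33 and 11.34 in B16F1-GFP-M, with array ratios that ran from almost 0 to 0.35 (mean 0.17, SD 0.24). *Brca2*, which acts at resected single-stranded ends, was at 0.06 and 0.13. *Bard1*, the obligate partner of BRCA1 in its ubiquitin ligase, had 0.51 on each array, a value that rests on a probe close to background in the maternal line. The MRN complex, which senses broken ends, was modestly higher in all 3 subunits: *Rad50* had 0.47 and 0.58, *Mre11a* 0.17 and 0.33, and *Nbn* 0.26 and 0.12. *Rad51c* and *Xrcc3* encode proteins that work as a pair, yet *Xrcc3* was ahead of *Rad51c* by 0.81 and 0.63. *Xrcc2* had 0.21 and 0.48.

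*Rad52* ran the opposite way. Its product anneals single strands and offers a route around BRCA2 in mammalian cells. The level was 8.13 and 7.96 in B16F1-GFP-D against 9.04 and 8.80 in B16F1-GFP-M, so it was lower in B16F1-GFP-D on each array. The ratios were -0.91 and -0.84 (mean -0.88, SD 0.05, 1.84-fold lower), the lowest of all members. A further *Rad52* probe gave -0.77 and -0.68. *Rad52* was past 1.5-fold but not 2-fold here, and was past 2-fold in the scanner software's own ratios (mean -1.19), which use another background correction.

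Base excision repair had 2 calls among 13 genes, *Ung* and *Parp1*, and a median of 0.30. Of the 7 glycosylases listed, 4 were higher and 3 lower on both arrays, beside 41.0% and 42.8% of all detected genes. With 7 genes this split is too coarse to set against those shares. The higher ones were *Ung*, *Tdg* (0.20 and 0.40), which removes thymine opposite guanine, *Mutyh* (0.33 and 0.43), which removes adenine opposite oxidised guanine, and *Neil3* (0.46 and 0.33), which acts on oxidised bases in single strands. The lower ones all act on oxidised bases. *Nthl1*, for oxidised pyrimidines, was at 8.01 and 7.95 against 8.79 and 8.65 (ratios -0.78 and -0.70). *Neil1* was at 8.01 and 7.98 against 8.72 and 8.51 (ratios -0.71 and -0.53), but a second, dimmer probe gave 0.04 and -0.30. *Ogg1*, the main enzyme for oxidised guanine, was at 9.63 and 9.21 against 10.07 and 9.96 (ratios -0.44 and -0.75), and a second probe gave nearly the same values, -0.43 and -0.68. *Ung* and *Tdg*, which share the task of removing uracil, differed by 2.13 and 2.00.

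The later steps of the pathway were closer to level. *Apex1*, the endonuclease that cuts beside the missing base, had ratios of 0.31 and 0.37, and *Polb*, the polymerase that fills the gap, -0.18 and -0.02. *Xrcc1*, a scaffold, had 0.38 and 0.24, and its partner ligase *Lig3* 0.12 and 0.29. The exception was *Parp1*, the sensor of single-strand breaks that marks them with chains of ADP-ribose. Its level was 10.43 and 10.49 against 9.40 and 9.25 (ratios 1.03 and 1.24, mean 1.13, SD 0.15). *Parp2*, the related enzyme that carries out part of the same task, had 0.10 and 0.31, and *Parp1* exceeded it by 0.92 on array 1 and 0.93 on array 2.

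*Parp1* was read by a pair of overlapping 60-base probes that cross an exon junction, at chr1:182530341-182530639 and chr1:182530321-182530619 on the plus strand of mm9. They are shown because they measure the same stretch of the transcript, with the 40 shared bases in capitals.
probe 1: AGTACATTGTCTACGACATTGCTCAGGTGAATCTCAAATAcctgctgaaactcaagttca
probe 2: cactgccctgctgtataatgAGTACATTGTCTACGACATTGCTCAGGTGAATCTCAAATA
Probe 1 gave log2 ratios of 1.03 and 1.24 (mean 1.13) and probe 2 gave 0.95 and 1.18 (mean 1.06). Probe 2 was thus below 2-fold on array 1, and *Parp1* was not called when the median of its probes was taken. Since the probes share most of their bases they are no independent measures of the gene.

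Nucleotide excision repair and end joining held no call and no gene past 1.5-fold on both arrays. Of all detected genes, 5.02% were called in either direction, so with so few genes the absence of a call is near that share. Past 1.5-fold on each array were 8.77% higher and 7.02% lower of all detected genes. The nucleotide excision median was 0.02, with 3 genes higher on both arrays, 3 lower on both and 4 that changed sign. *Ddb1*, the adaptor of the ligase that finds damage in chromatin, was the highest at 0.56 and 0.49, and its damage-binding partner *Ddb2* was at 0.15 and 0.08. *Xpa*, which verifies the lesion, was the lowest at -0.51 and -0.24. *Xpc*, the first sensor of distorted DNA, had -0.05 and 0.15. The nuclease partners *Ercc1* and *Ercc4* showed no difference beyond the spread of the arrays: *Ercc1* was at 11.28 on both arrays in B16F1-GFP-D and at 11.30 and 11.27 in B16F1-GFP-M, and *Ercc4* had ratios of -0.28 and 0.09. The helicases *Ercc2* and *Ercc3* of the transcription factor TFIIH had 0.13 and 0.06, and -0.07 and 0.34, the last having the largest array SD of all detected members, 0.29. The nuclease *Ercc5* was at -0.15 on array 1 and close to 0 on array 2, and *Ercc6*, which handles damage that stalls transcription, had -0.12 and -0.29 from a probe near background.

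End joining had a median of -0.15 over 4 genes. *Lig4*, the ligase of the pathway, was at 9.97 and 9.92 in B16F1-GFP-D against 10.51 and 10.50 in B16F1-GFP-M, a lower level with ratios of -0.54 and -0.58. Its partner *Xrcc4* had -0.36 and -0.03. The Ku subunits, which hold broken ends as a pair, diverged: *Xrcc6* had 0.35 and 0.41 while *Xrcc5* had 0.01 and -0.23. The damage-response kinase genes did not move together either. *Atm*, which responds to double-strand breaks, had 0.26 and 0.39, and *Atr*, which responds to stalled forks, had -0.24 and -0.14.

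**Figure D3:**
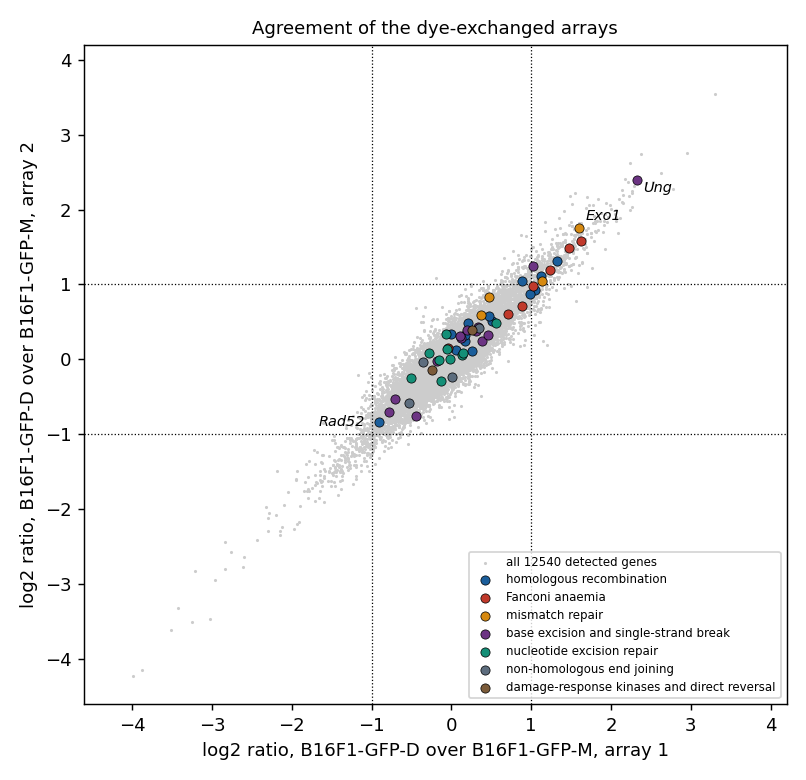
Log2 ratio (D over M) on array 1 (horizontal) and array 2 (vertical) for all 12540 detected genes (grey) and the 54 detected repair genes (coloured by pathway), with dotted lines at 2-fold. Called repair genes lie in the upper right square and none lies in the lower left square, where *Rad52* comes closest.

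Several members had more than 1 probe. There were 104 probes for the 56 genes, and 26 genes had at least 2 detected probes. Among detected probes the sign differed only for *Ercc4*, whose ratios are near 0. When probes that were not detected are included, *Atr*, *Ercc6*, *Pms2*, *Polb*, *Rad54l* and *Xrcc2* also had probes of both signs. The range over probes exceeded 1 for *Fanca* (0.29 to 1.48), *Fanci* (0.18 to 1.61) and *Rad54l* (-0.05 to 1.15), and in each case the low probe was not detected. Detected probes differed in size as well. A dimmer detected probe gave a smaller mean for *Rad54b* (0.46 against 0.99) and *Fancg* (0.21 against 0.66). It gave a larger mean for *Tdg* (0.58 against 0.30) and *Neil3* (0.63 against 0.39). With the median of all probes *Fanca* and *Fanci* had means of 0.88 and 0.89 and were not called. Calls were also rarer among dim probes: with the detected genes divided into 4 equal classes by brightness, 1.37% of genes in the dimmest class and 7.15% in the brightest were called in either direction. The 9 members in the dimmest class had 0 calls, the 22 in the next had 4, the 15 in the third had 3 and the 8 in the brightest had 2.

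The same pathways were described with 105 other repair genes, of which 104 had a probe and 99 were detected. Of these, 14 were called higher (14.1%, against 3.09% of all detected genes) and 0 lower (against 1.94%). On both arrays 55 were higher and 30 lower, and the median was 0.17. The mismatch group had 4 calls among 10 genes and the highest median of this list, 0.73. Recombination had 3 calls among 24 and a median of 0.39. For the Fanconi pathway the other genes were lower placed than the members, with 1 call among 13 and a median of 0.20. Base excision had 4 calls among 15 but a median of only 0.07. In nucleotide excision 12 of the 16 other genes were lower on both arrays and 2 higher, with a median of -0.30 and no call.

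Large differences in this wider list were found in enzymes that repair shares with DNA replication. *Lig1*, which joins Okazaki fragments, had ratios of 2.07 and 1.99. *Pcna*, the sliding clamp, had 1.52 and 2.07, and *Fen1*, the flap nuclease, 1.39 and 1.67. The single-strand binding subunits *Rpa2* and *Rpa1* had means of 1.60 and 1.34, the polymerase subunit *Pold1* 1.36, the clamp loader subunit *Rfc5* 1.35, the checkpoint activator *Topbp1* 1.24 and the chromatin protein *Hmgb1* 1.23.

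Markers of proliferating cells moved with these groups. All 28 listed markers of DNA replication and mitosis were detected and 27 were called higher in B16F1-GFP-D, the exception being *Ccne2* with 0.79 and 0.84. Their median was 1.496, above that of every repair group, and the highest was *Rrm2*, a subunit of the enzyme that makes deoxynucleotides, at 2.14 and 2.26. In bulk RNA a larger share of cells in S and G2 phase and more transcript per cell cannot be told apart, and the part of proliferation in the values of the repair genes was not tested. The paper's own cell cycle analysis found more B16F1-GFP-D than B16F1-GFP-M cells in G0/G1 phase. Whether the cultures used for the arrays had that distribution is not known.

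**Figure D4:**
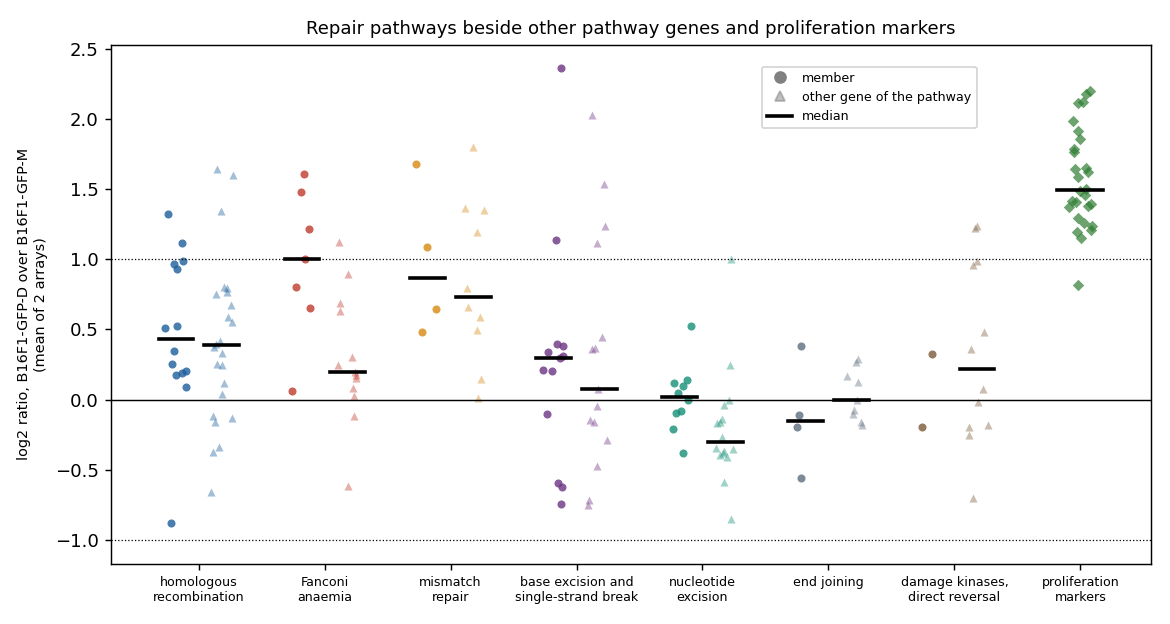
Log2 ratio (D over M, mean of both arrays) for detected members (circles) and other repair genes (triangles) of each pathway and for 28 proliferation markers (diamonds), with black bars for medians of groups of at least 3. The proliferation markers have a median of 1.496, the Fanconi members 1.00, the mismatch members 0.87 and the nucleotide excision members 0.02.

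The promoters of the members were searched for letters bound by E2F factors, which switch on replication genes at the start of S phase. RefSeq windows of 300 bases on GRCm38.p6, from 250 bases before to 50 after the start of a gene, were given for 46 of the 56 members. The motifs TTTCCCGC, TTTGGCGC, TTTGCCGC and TTTCGCGC were searched on both strands. At least 1 was found in 8 members, *Bard1*, *Brca2*, *Fancg*, *Msh3*, *Msh6*, *Nthl1*, *Rad51c* and *Xrcc6*, which is 17.4% of those with a window, against 2.61% of 27025 genes with a window and 4.86% of the 8964 detected genes with one. The stretches below are printed to show the match in the called *Msh6*, in *Msh3* and *Fancg*, which were higher but not called, and in *Nthl1*, which was lower. The match is in capitals, and in *Msh3* TTTGGCGC and, on the opposite strand, TTTCGCGC overlap.
Msh6: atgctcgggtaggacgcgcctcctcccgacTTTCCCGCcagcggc
Msh3: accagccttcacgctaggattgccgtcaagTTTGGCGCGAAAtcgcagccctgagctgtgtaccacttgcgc
Fancg: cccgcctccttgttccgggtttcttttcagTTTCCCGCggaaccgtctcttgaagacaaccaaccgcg
Nthl1: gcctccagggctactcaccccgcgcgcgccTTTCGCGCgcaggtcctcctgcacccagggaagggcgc
They lie at chr17:87975035-87975079 on the plus strand, chr13:92355164-92355235 on the minus strand, chr4:43010316-43010383 on the minus strand and chr17:24632520-24632587 on the plus strand, each in the promoter window of its gene. Of the 8 called members with a window only *Msh6* held a match. The 8 members with a match had a median log2 ratio of 0.45 and the 36 detected members without one 0.27. A match is a run of letters and not evidence of binding.

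The order of the pathway medians was then compared across processings. Fanconi and mismatch genes had the highest medians in all 11 alternatives, with medians from 0.81 to 1.20 and from 0.66 to 0.96. These alternatives are not independent of each other. Aquantile scaling cannot change a ratio, and the series value table repeats the scanner software's ratios. Changing the filter on dim probes left both medians as they were. Recombination ranged from 0.26 to 0.63, base excision from 0.20 to 0.38, nucleotide excision from -0.06 to 0.11 and end joining from -0.19 to -0.04. The sign of the mean was the same in all 11 for 47 of the 54 detected members.

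**Figure D5:**
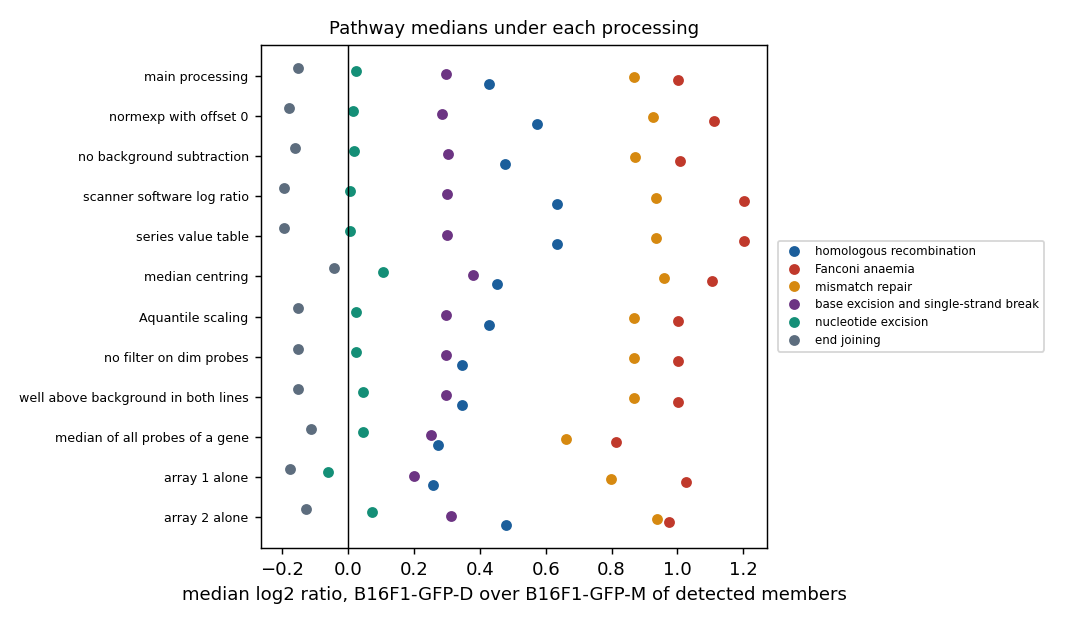
Median log2 ratio (D over M) by repair pathway, over detected members of 6 pathways (colours) under the main processing and 11 alternatives (rows). The Fanconi and mismatch medians lie to the right of the other pathways in every row, and the nucleotide excision medians lie around 0.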

How the data were processed

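Transcripts of the B16F1-GFP-D and the B16F1-GFP-M line were measured on 2 Agilent 2-colour arrays, the dyes being exchanged between them. The authors' software, Agilent Feature Extraction version 10.7.3.1, per the submitters' processing notes, measured the mean intensity and the local background intensity of each spot. The deposited log10 ratios of Cy5 over Cy3, which this software had corrected and scaled, and the series value table of the same log10 values were used as alternatives.

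Outlier and control spots were left out, which gave 41164 probes. In R 4.3.3 with limma 3.58.1, intensities were background-corrected by normexp (offset 50) and normalised by loess within arrays, and ratios were turned to log2 with B16F1-GFP-D as the numerator. Levels were scaled between arrays by Aquantile. The offset draws ratios of dim probes towards 0. Of 28069 probes with an accession, 27192 were named through the RefSeq table of GRCm38.p6. Probe positions are those of the arrays (mm9). Of the members, 53 were matched by accession and 3 (*Fancd2*, *Neil1*, *Mgmt*) by the name in the files. The brightest probe stood for each gene. Calls follow a rule of size, as there is 1 replicate per line. The number of arrays limits the precision. The procedure was tested on simulated data.

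Named with values were the called members, the highest and lowest of each pathway, members whose probes disagreed, other members with their roles, and at most 10 called genes of the other list, of which 1 is not reported here. The members and all lists were chosen with earlier results of these data known. Alternatives covered background correction, normalisation, the filter on dim probes, the choice of probe, each array alone and the threshold. Python 3.11.15 was used for tables and figures, with pandas 2.3.3 and matplotlib 3.10.9.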

Additional observations from a re-analysis of the deposited data

How the results depend on the processing

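The direction of the pathway medians was kept under every alternative except for nucleotide excision repair, whose median of 0.02 became -0.06 on array 1 alone. The count of members called higher, 9 in the main processing, was 14 with the ratio of the scanner software and also 14 with the series value table, 1 with median centring, 6 with the median of all probes of a gene (without *Fanca*, *Fanci* and *Parp1*), 15 at 1.5-fold and 2 at 3-fold. The count called lower, 0 in the main processing, was 1 (*Rad52*) with an offset of 0, with the software's ratio and with the series table, and 2 at 1.5-fold (*Rad52* and *Nthl1*). The recombination median moved from 0.43 to 0.63 with the software's log ratio and the series value table, to 0.27 with the median of all probes and to 0.26 on array 1 alone. The Fanconi median moved from 1.00 to 1.20 with the software's log ratio and the series value table and to 0.81 with the median of all probes, and the mismatch median moved from 0.87 to 0.66 with the latter, which includes probes that were not detected. For the other differences the cause was not tested. Each array alone called 11 and 10 members higher. The share of all detected genes called in either direction was 5.02% in the main processing, 10.8% with the software's log ratio and 0.510% with median centring. It was 8.59% with an offset of 0, 10.8% with the series value table and 3.76% with the median of all probes. At 1.5-fold it was 15.8% and at 3-fold 0.981%. On array 1 alone it was 4.79%, and on array 2 alone 5.40%, of the genes detected on that array. Aquantile scaling left every ratio as it was, by its construction. Of the 24 members followed by name, 21 kept their sign in all 11 alternatives. No paired analysis was possible because a lone replicate of either line exists. With 2 arrays of 1 replicate per line, variation between cultures or clones could not be measured, and the ratios of some members depended on the correction and scaling used, the mean moving from 0.96 to 1.87 for *Rad54l*, from 0.51 to 1.25 for *Bard1*, from -0.21 to -0.91 for *Ercc6* and from 2.36 to 3.06 for *Ung* with the software's ratio.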
